A study of Mus musculus with 6 samples.

Results

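Solute carriers are the membrane proteins that move sugars, amino acids, vitamins, metals, ions, hormones and drugs across the cell surface and the membranes of organelles. The 199 genes described here are the symbols of the SLC and SLCO naming series whose mean FPKM, an expression level scaled for transcript length and library size, was at least 5 in the P5 or in the P30 choroid endothelial cells (ECs). They are 199 of the 344 symbols of that pattern and of the 22026 gene symbols in the data. The level chose the members, so that a high level is no finding, and 26 members reached the threshold only at P30, 5 only at P5 and 168 at both ages. Of the 145 symbols left out, 74 were listed at 0 in all 6 isolations. The members just inside the threshold were Slc47a1, Slc2a6, Slc16a10 and Slc4a8, whose higher mean was 5.15, 5.20, 5.30 and 5.35, and just outside it were Slc41a2, Slc28a2, Slc29a2 and Slc14a1, at 4.96, 4.91, 4.597 and 4.33.

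The study compared choroid ECs of young and adult 129/B6 mice, at postnatal day 5 (P5) and postnatal day 30 (P30), and each of the 3 isolations per age pooled 14 eyes from 7 animals. An antibody that binds VE-Cadherin, a junction protein of ECs, was injected into the living animal, the P5 mice being anaesthetized by hypothermia, and labelled cells were sorted by flow cytometry from RPE/choroid tissue freed of the neural retina. No gene was altered and no treatment given at either age, the adult animals were of both sexes, and the sex of the pups is not given in the sources used here. P5 precedes and P30 follows the maturation of the outer blood-retina barrier, and the comparison asks which carriers differ between immature and mature choroid ECs.

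Choroid capillaries are fenestrated and feed the outer retina through the retinal pigment epithelium (RPE), which forms the sealed layer of the outer barrier. In vessels with a closed wall, as in the brain, ECs carry glucose, lactate, amino acids and organic anions through named carriers, of which GLUT1 (Slc2a1), MCT1 (Slc16a1), LAT1 (Slc7a5 with Slc3a2) and Oatp1a4 (Slco1a4) are the textbook examples. Many other carriers serve the cell itself, in mitochondria, lysosomes and the Golgi.

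Endothelial markers were high in all 6 isolations, where 9 such genes summed to an FPKM of between 19878 and 20433 at P5 and between 28215 and 34012 at P30. Markers of other cells were also present, those of RPE, pericytes, fibroblasts and photoreceptors with higher sums at P30 and those of macrophages with lower sums in 2 of the 3 P30 isolations. The 8 RPE genes summed to between 66.5 and 152 at P5 and to 3825, 2133 and 499 in P30 replicates 1, 2 and 3, and 5 of them passed the test below, with none at 0 throughout P5. The 7 pericyte genes summed to between 468 and 1712 at P5 and to 1841, 6228 and 3819 at P30, with 1 past the test. The 6 fibroblast genes summed to between 544 and 912 at P5 and to 1530, 3808 and 1975 at P30, with 1 past the test and Dpt listed at 0 at P5. The 8 photoreceptor genes summed to between 2.21 and 11.3 at P5 and to 391, 259 and 41.0 at P30, with 3 past the test and Pde6a and Rcvrn listed at 0 at P5. The 8 macrophage and haematopoietic genes summed to between 814 and 1050 at P5 and to 894, 329 and 560.1 at P30, with 0 higher and 3 lower at P30 past the test (Ptprc, Aif1 and Mrc1) and none at 0 throughout P5. Smooth muscle markers summed to between 559 and 593 at P5 and to 895, 1451 and 706 at P30. Schwann cell markers summed to between 188 and 314 at P5 and to 1176, 1075 and 859 at P30. Pigment cell markers (1254, 1127 and 121 at P30) and erythroid markers (1034, 1395 and 433) overlapped P5. The Muller glia list had a lower sum at P30, with none past the test. Its highest gene, Vim, had 3711 ± 473 at P5 and 1997 ± 456 at P30. Glul, Slc1a3 and Kcnj10 had higher means at P30, and Aqp4 was listed at 0 in all 6 isolations. The part of these cells in the levels of the carriers was not tested, and in sorted bulk RNA a change in the number of cells of a type cannot be told apart from a change in RNA per cell. P30 replicate 1 was thus the richest of its age in RPE, photoreceptor, Schwann cell and pigment cell markers. P30 replicate 2 was the richest in pericyte, fibroblast, smooth muscle and erythroid markers. An order of isolations shared with 1 of these lists therefore does not single out a cell type. Each carrier below is given with its 3 values in the order of replicates 1, 2 and 3, or as the mean FPKM ± SD of the 3 isolations.

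More carriers were higher at P30 than at P5. Differences were tested with limma on log2(FPKM + 1), a scale that understates the change of low genes, and a gene was said to rise or fall only at a Benjamini-Hochberg adjusted p under 0.01 over all 12481 genes tested together with a 2-fold difference in mean FPKM + 1. By these limits 17 carriers (8.54%) rose from P5 to P30, beside 5.89% of all genes tested, and 6 (3.02%) fell, beside 5.82%. Of the 168 carriers over the threshold at both ages, 11 rose and 5 fell. Of the 168, 46 were above and 44 below at P30 without overlap, beside 22.0% and 33.0% of all genes tested. Of the 26 over the threshold only at P30, which their choice sets on that side, 6 rose. The median log2 fold change, P30 minus P5, was 0.16 over the carriers and -0.10 over all genes tested. The lowest P30 isolation exceeded the highest P5 isolation in 65 carriers (32.7%), against 22.0% of all genes, and the reverse held in 47 (23.6%), against 33.0%. At an adjusted p under 0.01 without the fold limit, 24 were higher at P30 and 12 lower, 18.1% of the carriers together, beside 8.51% and 10.7% of all genes and 19.2% together, and at an adjusted p under 0.05 the counts were 51 and 33, beside 16.1% and 22.4%. Summed over the 199 carriers, the FPKM was 17955, 17624 and 15655 at P5 and 23728, 23587 and 21067 at P30, which is 1.17% ± 0.0659 and 1.38% ± 0.0572 (SD, n = 3) of the FPKM of all genes.

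These counts depended on scaling and on single isolations. The summed FPKM of all genes was higher at P30, and when each isolation was rescaled to the same sum (TPM) the median of all genes moved from -0.10 to -0.27 and that of the carriers from 0.16 to -0.04, with 15 carriers higher at P30 and 10 at P5, so that the share of calls higher at P30 was 60.0% in place of 73.9%. The threshold of 5 was applied again on the TPM scale, where 182 carriers and 11880 genes were fitted. The medians and counts before and after rescaling thus cover different sets of genes. On that scale the share of all genes tested past both limits was 5.16% with the higher mean at P30 and 8.76% with the higher mean at P5. The carriers added as lower at P30 by TPM were Slc7a6, Slc31a1, Slc38a1 and Slc39a11. Without P5 replicate 2 the counts were 9 and 2, without P5 replicate 3 they were 8 and 2, and without P30 replicate 2 they were 10 and 8. Of the 23 carriers that rose or fell, 9 did so whichever isolation was left out, namely Slc1a1, Slc3a2, Slc6a2, Slc16a1, Slc16a9, Slc50a1, Slc10a6, Slc40a1 and Slc43a2. With all 6 isolations and no replicate block, the calls ended by other settings included those of Slc2a1 (no filter, quantile normalization, no trend, sample weights), Slc6a7 (pseudocount 0.1), Slc48a1 (TPM), and Slc9a5 and Slc29a3 (pseudocount 5, quantile normalization). All 23 kept their sign under every alternative run.

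**Figure D1:**
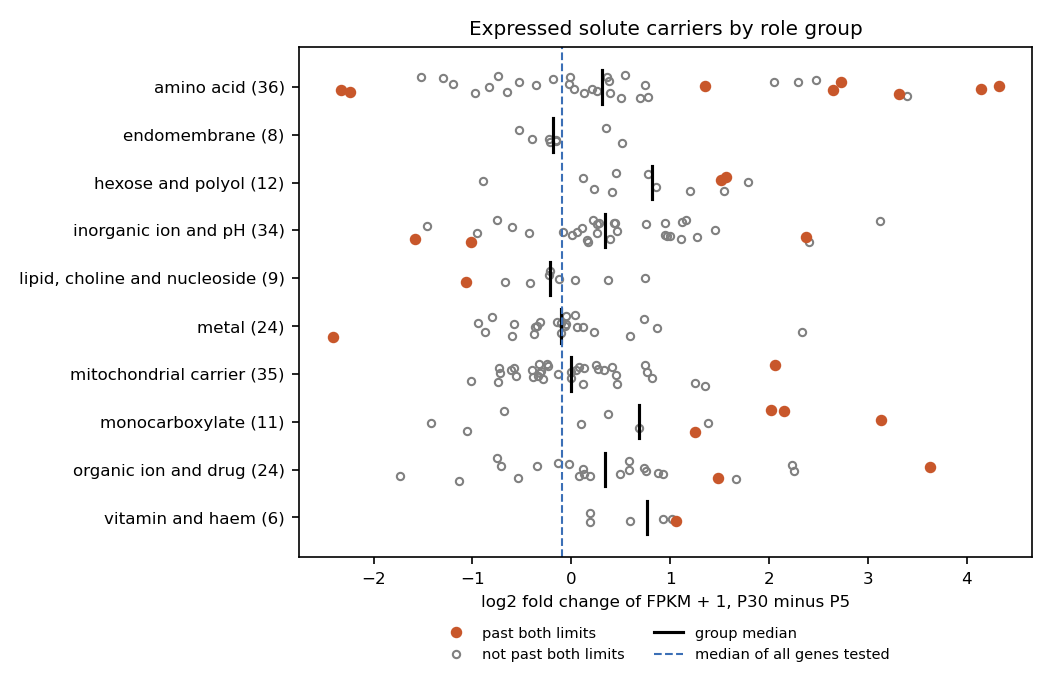
Log2 fold change of FPKM + 1, P30 minus P5 (horizontal axis), of the 199 expressed solute carriers, in 10 groups by the role of the family with the number of members in brackets. Each point is 1 gene, filled where it passed both limits, the black bar is the median of the group and the dashed line the median of all genes tested at -0.10. The medians of the hexose, vitamin and monocarboxylate groups lie farthest to the right, and 17 filled points lie right of 0 against 6 left of it.

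**Figure D2:**
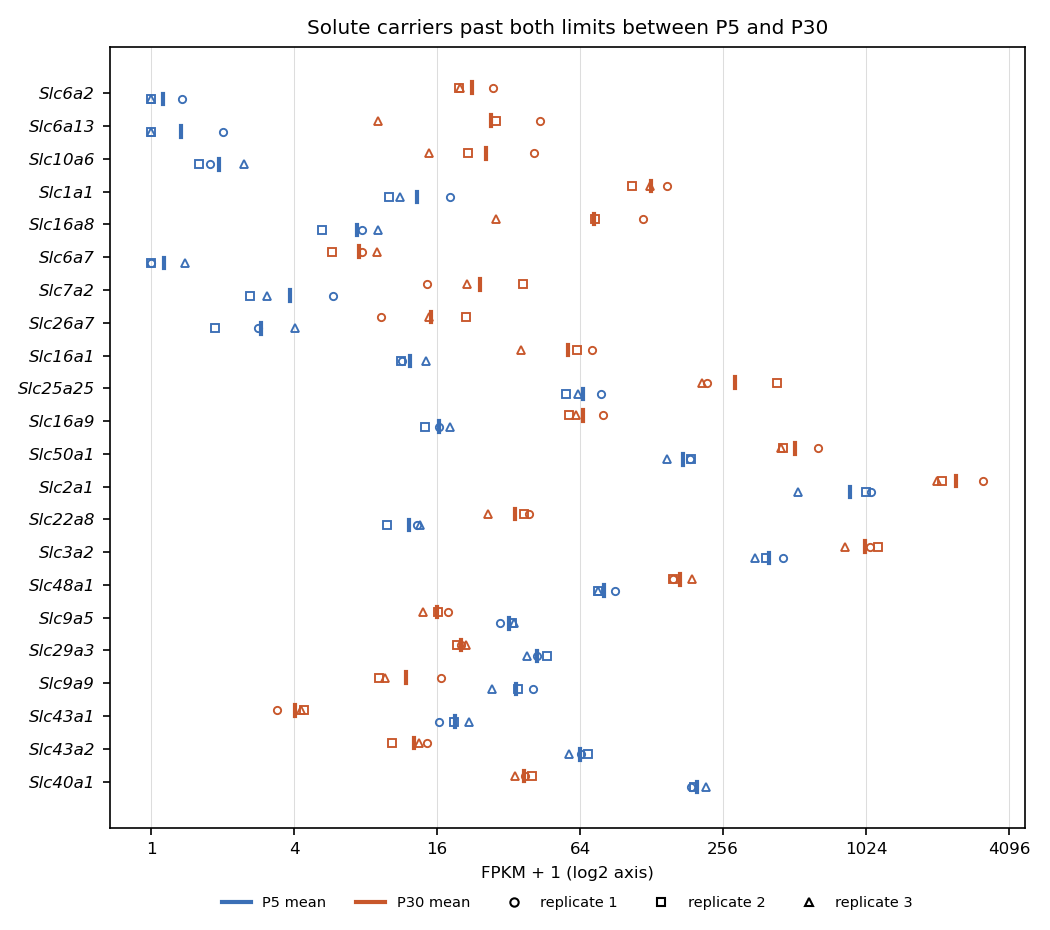
FPKM + 1 on a log2 axis of 16 of the carriers that rose and the 6 that fell, ordered by log2 fold change. Blue is P5 and orange P30, the bar is the mean of 3 isolations and the circle, square and triangle are replicates 1, 2 and 3. In each of the 22 genes drawn the 3 isolations of one age lie on one side of the 3 of the other.

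Grouped by the role of the family, the highest medians were those of the hexose, vitamin and monocarboxylate carriers. Of 12 hexose and polyol carriers 2 rose and 0 fell (median log2 fold change 0.82), of 11 monocarboxylate carriers 4 rose and 0 fell (0.68), and of 36 amino acid carriers 6 rose and 2 fell (0.31). Of 24 carriers of organic ions and drugs 2 rose and 0 fell (0.34), and of 6 carriers of vitamins and haem 1 rose and 0 fell (0.76). Of 34 carriers of inorganic ions 1 rose and 2 fell (0.34), of 24 metal carriers 0 rose and 1 fell (-0.11), and of 9 carriers of lipids, choline and nucleosides 0 rose and 1 fell (-0.22). Of 35 mitochondrial carriers 1 rose and 0 fell (0.00), and of the 8 of the Golgi and endoplasmic reticulum 0 rose and 0 fell (-0.19), of which 1 was higher and 1 lower at P30 at an unadjusted p under 0.05 in limma. At that unadjusted limit, 1 hexose, 1 monocarboxylate, 3 organic ion, 0 vitamin and 11 mitochondrial carriers were lower at P30, and 4 metal carriers and 1 lipid, choline or nucleoside carrier were higher. Over all genes tested, 20.7% were higher and 28.8% lower at P30 at that limit, beside 61 and 43 of the 199 carriers. A family was placed in 1 group as a whole, so that single members with another substrate are named where they occur. In a list of 48 carriers of nutrients and of vessel barriers, 43 were members, of which 7 rose, 1 fell and 35 did not pass both limits. Beside these counts and those of the role groups, 5.89% of all genes tested rose and 5.82% fell. The list and the groups were chosen with earlier results of these data known. Another 4 of that list were below the threshold (Slc2a3, Slc7a3, Slc38a5 and Slc46a1) and Slc52a2 was not found by symbol.

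Glucose carriers were led by Slc2a1, which encodes GLUT1, the carrier that brings glucose into ECs and across vessel walls. It was the most highly expressed of the 199 carriers by its mean over the 6 isolations, at chr4:118781316-118809935 of mm9. Slc2a1 had an FPKM of 1077, 1028 and 529 at P5 and 3184, 2129.5 and 2029 at P30. All P30 isolations were thus above all P5 isolations, P5 replicate 3 being the lowest of all and P30 replicate 1 the highest. The P30 isolations of Slc2a1 followed the order of the RPE markers. Mean Slc2a1 was 2.79-fold higher at P30, and limma gave a log2 fold change of 1.52 with an SE of 0.30 (adjusted p = 0.00733). The adjusted p from limma lay between 0.0124 and 0.0194 when any 1 of the 6 isolations was left out, so that the rise did not hold past the limit in any of these fits. Slc2a1 held 91.0% ± 2.29 of the summed FPKM of the 7 expressed Slc2a members at P5 and 95.7% ± 1.61 at P30 (SD, n = 3).

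The promoters of 4 carriers that rose are shown because these genes stand for the carriers of glucose, lactate, glutamate and neutral amino acids that rose. Each is the 250 bases before the start of the gene, 5′ to 3′ on the strand of the gene, from RefSeq on GRCm38.p6. Capitals mark the E-box CACGTG, the core of the hypoxia response element ACGTG and the GC box GGGCGG on either strand, the core lying also within the E-box. Of 32851 RefSeq promoters of this length, 6.02% hold the E-box, 16.6% the core and 32.7% the GC box.
Slc2a1, chr4:119108495-119108744, plus strand: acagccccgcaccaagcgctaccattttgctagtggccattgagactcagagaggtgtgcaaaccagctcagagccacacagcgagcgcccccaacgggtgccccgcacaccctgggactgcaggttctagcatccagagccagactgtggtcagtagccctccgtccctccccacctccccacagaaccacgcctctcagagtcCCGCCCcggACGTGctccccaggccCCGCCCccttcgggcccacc
Slc16a1, chr3:104638414-104638663, plus strand: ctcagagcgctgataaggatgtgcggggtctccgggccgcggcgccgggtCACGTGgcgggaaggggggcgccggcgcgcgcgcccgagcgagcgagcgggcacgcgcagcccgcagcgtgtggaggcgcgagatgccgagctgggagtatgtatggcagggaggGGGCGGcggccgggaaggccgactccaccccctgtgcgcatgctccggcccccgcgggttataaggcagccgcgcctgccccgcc
Slc1a1, chr19:28834885-28835134, plus strand: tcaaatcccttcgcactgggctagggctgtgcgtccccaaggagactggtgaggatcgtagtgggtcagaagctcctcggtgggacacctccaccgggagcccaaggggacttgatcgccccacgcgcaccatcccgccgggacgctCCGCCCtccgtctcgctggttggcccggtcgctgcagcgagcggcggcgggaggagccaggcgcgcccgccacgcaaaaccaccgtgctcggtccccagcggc
Slc3a2, chr19:8713898-8714147, minus strand: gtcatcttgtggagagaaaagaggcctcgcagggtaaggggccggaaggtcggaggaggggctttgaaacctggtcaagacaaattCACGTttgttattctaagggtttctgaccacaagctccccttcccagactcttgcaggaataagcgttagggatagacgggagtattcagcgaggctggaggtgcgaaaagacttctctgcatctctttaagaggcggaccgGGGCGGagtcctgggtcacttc
The window of Slc2a1 holds 1 core and 2 GC boxes, that of Slc16a1 an E-box and a GC box, that of Slc1a1 a GC box, and that of Slc3a2 a core and a GC box. Among the members, 154 had a promoter in the table, of which 14.3% hold the E-box, 24.0% the core and 68.2% the GC box. Counted by gene in the same way, the shares over all 27025 genes with a promoter were 6.86%, 18.5% and 35.4%. Among the 11 carriers that rose and had a promoter, 1 holds the E-box, 4 the core and 7 the GC box. A match of letters is not a binding site.

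Slc50a1 was the other member of this group that rose, and encodes a sugar carrier of the Golgi and cell surface. At P5 Slc50a1 had an FPKM of 184, 186 and 147, and at P30 it had 640.5, 456 and 449.9. The P30 isolations were all above the P5 isolations by more than 2 times. Mean Slc50a1 was 2.99-fold higher at P30, and limma gave a log2 fold change of 1.56 with an SE of 0.17 (adjusted p = 0.000642). The remaining members did not pass both limits. Slc2a4, which encodes the insulin-responsive GLUT4, had 3.62 ± 1.11 at P5 and 17.7 ± 11.2 at P30 (adjusted p 0.0413). Slc5a6, counted with the Slc5 family although it carries biotin and pantothenate, had 5.84 ± 2.50 at P5 and 18.9 ± 7.03 at P30 (adjusted p 0.0147). Slc5a3, the myo-inositol carrier, had 12.6 ± 1.45 at P5 and 14.3 ± 4.96 at P30 (adjusted p 0.774), with overlapping isolations.

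Monocarboxylate carriers, which move lactate, pyruvate, ketone bodies and related small molecules, rose in 4 of 11 members. The sum of the 11 was 203 ± 17.2 at P5 and 443 ± 81.7 at P30 (FPKM, SD, n = 3), or 197 ± 18.5 and 371 ± 48.3 without Slc16a8, which is typical of the RPE. Slc16a1, Slc16a4, Slc16a8 and Slc16a9 together made up 31.2% ± 2.18 of the sum at P5 and 60.3% ± 9.64 at P30. These 4 had the highest log2 fold changes of the 11, so that their larger share at P30 follows from the choice. Slc16a4 among them did not pass both limits.

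Slc16a1 encodes MCT1, the lactate and ketone body carrier of barrier vessels, at chr3:104442591-104462385 of mm9. The FPKM of Slc16a1 was 10.4, 10.2 and 13.4 at P5 and 70.7, 61.3 and 35.2 at P30. The P30 isolations followed the order of the RPE markers. P30 replicate 3 was the lowest of them and was still over 2 times the highest P5 isolation. Mean Slc16a1 was 4.91-fold higher at P30, and limma gave a log2 fold change of 2.15 with an SE of 0.28 (adjusted p = 0.00138).

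Slc16a9, which has been linked to the transport of carnitine, is at chr10:69707848-69748716 of mm9. Slc16a9 had an FPKM of 15.3, 13.2 and 17.1 at P5 and 78.5, 56.3 and 60.2 at P30. The isolations of each age stood close together and the ages far apart. Mean Slc16a9 was 4.27-fold higher at P30, and limma gave a log2 fold change of 2.02 with an SE of 0.18 (adjusted p = 0.000369).

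Slc16a4, an orphan carrier of the family, had 30.6 ± 12.0 at P5 and 78.1 ± 17.5 at P30 (adjusted p 0.0140) and passed both limits only with quantile normalization and with the replicate block.

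**Figure D3:**
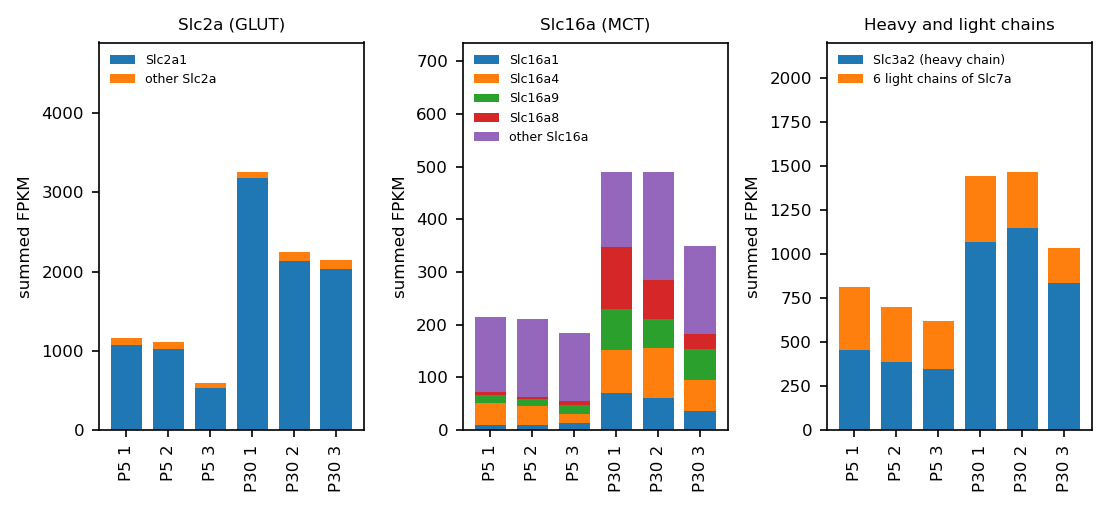
Summed FPKM (vertical axes) in each of the 6 isolations, for the Slc2a members (left), the Slc16a members (middle) and the heavy chain Slc3a2 with 6 light chains of the Slc7a family (right). The Slc2a bars are nearly all Slc2a1, the Slc16a bars are taller at P30, where the 4 named members take a larger share, and in the right panel the heavy chain is taller at P30 while the light chains overlap between the ages. The 4 named Slc16a members had the highest log2 fold changes of the family, so that their larger share at P30 follows from the choice.

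Among the amino acid carriers, 6 rose and 2 fell. Those that rose carry glutamate (Slc1a1), cationic amino acids (Slc7a2), proline (Slc6a7), GABA and taurine (Slc6a13) and noradrenaline (Slc6a2), or are the shared heavy chain of several exchangers (Slc3a2). Those that fell, Slc43a1 and Slc43a2, carry large neutral amino acids. Slc7a2, Slc6a7, Slc6a13 and Slc6a2 were over the threshold only at P30 and Slc43a1 only at P5, which sets the side of each.

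Slc1a1 encodes EAAT3, which takes up glutamate and cysteine, and lies at chr19:28909539-28988450 of mm9. At P5 Slc1a1 had an FPKM of 17.1, 8.98 and 10.2, and at P30 it had 147, 105 and 125. The lowest P30 isolation was more than 2 times the highest P5 isolation. Mean Slc1a1 was 10.4-fold higher at P30, and limma gave a log2 fold change of 3.31 with an SE of 0.25 (adjusted p = 0.000213). The other expressed Slc1 members were Slc1a5, a glutamine exchanger, with 45.7 ± 12.4 at P5 and 60.0 ± 17.4 at P30 (adjusted p 0.270) and overlapping isolations, and Slc1a4, which carries serine and alanine, with 24.5 ± 1.55 at P5 and 8.90 ± 5.34 at P30 (adjusted p 0.0250). Without P30 replicate 2, in which it was highest at P30, Slc1a4 passed both limits as lower at P30, at an adjusted p of 0.00927 from limma.

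Slc3a2 encodes the heavy chain that several light chains of the Slc7a family need to reach the cell surface, and lies at chr19:8781372-8797859 of mm9. The FPKM of Slc3a2 was 456, 388 and 348 at P5 and 1068, 1147 and 835 at P30. The ages did not overlap. Mean Slc3a2 was 2.56-fold higher at P30, and limma gave a log2 fold change of 1.35 with an SE of 0.15 (adjusted p = 0.000840). Its 6 possible light chains among the members (Slc7a5, Slc7a6, Slc7a7, Slc7a8, Slc7a10 and Slc7a11) summed to 314 ± 44.0 at P5 and 300.4 ± 90.7 at P30, so that the FPKM of the heavy chain over that of the light chains was 1.27, 1.25 and 1.28 at P5 and 2.82, 3.57 and 4.15 at P30. FPKM is a level per length of transcript, and this ratio compares transcripts, not proteins.

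Of these light chains, Slc7a5, which with Slc3a2 forms the large neutral amino acid exchanger LAT1, had 146 ± 41.3 at P5 and 181 ± 70.1 at P30 (adjusted p 0.547), with overlapping isolations. Slc7a8, the LAT2 light chain, had 26.1 ± 3.47 at P5 and 16.3 ± 7.33 at P30 (adjusted p 0.132). Slc7a6 and Slc7a7, the light chains of system y+L, had 50.9 ± 4.38 at P5 and 25.4 ± 2.07 at P30 (adjusted p 0.00232) and 86.1 ± 5.70 at P5 and 54.3 ± 0.821 at P30 (adjusted p 0.00394), which passed the adjusted p but not the fold. Slc7a11, the light chain of the cystine and glutamate exchanger, had 3.56 ± 0.488 at P5 and 7.11 ± 2.76 at P30 (adjusted p 0.154). Slc7a10, a light chain for small neutral amino acids, had 1.42 ± 0.184 at P5 and 16.3 ± 12.9 at P30 (adjusted p 0.0237). None of the 6 passed both limits with all isolations on the FPKM scale. Slc7a6 passed them as lower at P30 with TPM, without P5 replicate 1 and without P30 replicate 3, and Slc7a10 as higher without P30 replicate 3.

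Slc7a2 and Slc7a1 encode cationic amino acid carriers, which bring in arginine without a heavy chain. Slc7a2 had an FPKM of 4.82, 1.59 and 2.08 at P5 and 13.5, 35.9 and 20.4 at P30. P30 replicate 2 was the highest and P30 replicate 1 the lowest of its age, the order of the pericyte and fibroblast markers. Mean Slc7a2 was 8.22-fold higher at P30, and limma gave a log2 fold change of 2.65 with an SE of 0.46 (adjusted p = 0.00446). Both limits were no longer met without P5 replicate 2 or 3 or P30 replicate 2 or 3, with an adjusted p of up to 0.0237 from limma. Slc7a1 had 46.1 ± 2.47 at P5 and 45.9 ± 5.07 at P30 (adjusted p 0.958), with overlapping isolations.

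Slc43a2 and Slc43a1 encode LAT4 and LAT3, which let large neutral amino acids pass without exchange. At P5 Slc43a2 had an FPKM of 63.8, 68.0 and 56.6, and at P30 it had 13.5, 9.36 and 12.4. The FPKM of Slc43a1 was 15.3, 17.8 and 20.8 at P5 and 2.38, 3.38 and 3.27 at P30. In both genes all P30 isolations were below all P5 isolations. Mean Slc43a2 was 5.35-fold lower at P30, and limma gave a log2 fold change of -2.33 with an SE of 0.18 (adjusted p = 0.000249). Mean Slc43a1 was 5.96-fold lower at P30, and limma gave a log2 fold change of -2.24 with an SE of 0.28 (adjusted p = 0.00121). Slc43a1 lost its call without P5 replicate 2 or 3, with an adjusted p of up to 0.0137 from limma. Summed, both had 80.7 ± 4.41 at P5 and 14.8 ± 1.75 at P30 (SD, n = 3). Slc43a3, counted with them although it carries purine nucleobases, had 348 ± 32.7 at P5 and 241 ± 30.9 at P30 (adjusted p 0.0161).

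The Slc6 family was above at P30 in all 7 expressed members, in that no P30 isolation overlapped P5, and 3 of the 7 rose. Slc6a6 and Slc6a8 were the 2 over the threshold at both ages, while the other members, among them all 3 that rose, were over it only at P30, which sets their side. Slc6a2 encodes the noradrenaline transporter and lies at chr8:95483978-95525566 of mm9. Slc6a2 had an FPKM of 0.350, 0 and 0 at P5 and 26.6, 18.7 and 19.0 at P30. It was listed at 0 in P5 replicates 2 and 3 and had similar levels in the P30 isolations. On the log2(FPKM + 1) scale Slc6a2 rose by 4.32 ± 0.38 (SE, adjusted p = 0.000334 from limma). Slc6a7 encodes a proline transporter best known from the brain. At P5 Slc6a7 had an FPKM of 0, 0 and 0.380, and at P30 it had 6.68, 4.79 and 7.95. Its level was just over the threshold at P30. On the log2(FPKM + 1) scale Slc6a7 rose by 2.72 ± 0.52 (SE, adjusted p = 0.00673 from limma). Without any 1 of the 6 isolations the adjusted p of Slc6a7 was between 0.0123 and 0.0286 in limma, so that its call was lost each time.

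The other Slc6 members did not pass both limits, apart from Slc6a13, which is described with the carriers typical of other cells. Slc6a6, the taurine transporter, had 1016 ± 211 at P5 and 1615 ± 40.4 at P30 (adjusted p 0.0137). By its mean over the 6 isolations it came after Slc2a1 and Slc9a3r2 among the 199 symbols, and Slc9a3r2 is not a carrier. Slc6a8, the creatine transporter, had 43.7 ± 0.333 at P5 and 64.6 ± 7.34 at P30 (adjusted p 0.0144). Slc6a9, the glycine transporter GlyT1, had 4.13 ± 1.62 at P5 and 22.1 ± 11.3 at P30 (adjusted p 0.0143), with 29.5, 27.7 and 9.03 in the P30 isolations. Without P30 replicate 3 it passed both limits, at an adjusted p of 0.00247 from limma. In the Slc38 family of glutamine and neutral amino acid carriers 0 of 8 members passed both limits in limma, and at an unadjusted p under 0.05 there were 2 higher and 3 lower at P30, beside 20.7% and 28.8% of all genes. Slc38a2, its highest member here, had 575 ± 26.0 at P5 and 823 ± 139.7 at P30 (adjusted p 0.0231), and Slc38a3 had 44.0 ± 5.21 at P5 and 21.1 ± 11.3 at P30 (adjusted p 0.0610).

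Carriers of organic ions, hormones and drugs rose in 2 of 24 members. Slc22a8 encodes OAT3, an exporter of organic anions in brain vessels. The FPKM of Slc22a8 was 12.2, 8.82 and 12.5 at P5 and 38.1, 36.0 and 25.1 at P30. The lowest P30 isolation was replicate 3, at about 2 times the highest P5 isolation. Mean Slc22a8 was 2.96-fold higher at P30, and limma gave a log2 fold change of 1.48 with an SE of 0.24 (adjusted p = 0.00319). Significance was lost without P5 replicate 1, 2 or 3 or P30 replicate 2, with an adjusted p of up to 0.0179 from limma. Slc10a6 encodes a carrier of sulphated steroids and was over the threshold only at P30, which sets its side. Slc10a6 had an FPKM of 0.760, 0.590 and 1.45 at P5 and 39.9, 20.5 and 13.8 at P30. The P30 isolations followed the order of the RPE markers, and all were over 2 times the highest P5 isolation. On the log2(FPKM + 1) scale Slc10a6 rose by 3.63 ± 0.45 (SE, adjusted p = 0.00117 from limma).

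Slco1a4 was the highest member of this group and encodes an organic anion carrier of brain vessels. At P5 Slco1a4 had an FPKM of 509, 358 and 158, and at P30 it had 991, 1210.5 and 775. P5 replicate 3 was the lowest isolation, and the ages did not overlap. Mean Slco1a4 was 2.91-fold higher at P30, and limma gave a log2 fold change of 1.67 with an SE of 0.40 (adjusted p = 0.0152). It did not pass the adjusted p, which was 0.00619 with the replicate block. Its relatives Slco1a1, Slco1a5 and Slco1a6 had a mean FPKM of 9.99, 8.09 and 5.68 at P5 and 8.08, 13.3 and 6.46 at P30. Whether they share reads with Slco1a4 was not tested, so that the 4 are uncertain as single genes. Their summed FPKM was 550.1, 378 and 167 at P5 and 1000.4, 1221 and 839 at P30.

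Of the other SLCO members, Slco2a1, the prostaglandin transporter, had 271 ± 30.9 at P5 and 166 ± 24.8 at P30 (adjusted p 0.00772), which passed the adjusted p but not the fold. Slco1c1, a thyroxine carrier of brain vessels, had 8.72 ± 0.408 at P5 and 18.7 ± 9.67 at P30 (adjusted p 0.113). Its P30 values of 28.1, 19.1 and 8.80 overlapped P5, and without P30 replicate 3 it passed both limits, at an adjusted p of 0.00983 from limma. Slco3a1 had 79.0 ± 3.39 at P5 and 114 ± 24.5 at P30 (adjusted p 0.0480) and Slco2b1 had 112 ± 20.5 at P5 and 121 ± 33.5 at P30 (adjusted p 0.803), both being carriers of organic anions, prostaglandins and steroid conjugates.

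The metal carriers held the largest fall of all members by log2 fold change. Slc40a1 encodes ferroportin, the exporter that releases iron from cells, and lies at chr1:45964915-45982439 of mm9. The FPKM of Slc40a1 was 186, 192 and 215 at P5 and 36.4, 39.2 and 33.2 at P30. The isolations of each age differed by little beside the distance between the ages. Mean Slc40a1 was 5.45-fold lower at P30, and limma gave a log2 fold change of -2.42 with an SE of 0.12 (adjusted p = 6.8e-05). Slc40a1 is also abundant in macrophages, and of the 8 macrophage and haematopoietic markers Ptprc had 27.1 ± 1.51 at P5 and 7.82 ± 0.187 at P30, Aif1 had 51.4 ± 9.78 and 8.90 ± 6.70, and Mrc1 had 255 ± 15.7 and 44.7 ± 36.7 (adjusted p of 0.000732, 0.00368 and 0.00905 from limma). The markers of that list did not all go down. Lyz2 and Cd14 had higher means at P30, with log2 fold changes of 0.23 and 0.37 (adjusted p of 0.686 and 0.455 from limma). Csf1r, Itgam and Cd68 had lower means without a call, with log2 fold changes of -1.57, -0.73 and -0.31 (adjusted p of 0.0408, 0.163 and 0.203 from limma). The part of macrophages in the fall of Slc40a1 was not tested. Iron and copper importers also had lower means at P30 without passing both limits. Slc31a1, the copper importer, had 105 ± 9.80 at P5 and 58.3 ± 15.4 at P30 (adjusted p 0.0109), and without P30 replicate 2 it passed both limits, at an adjusted p of 0.00273 from limma. Slc11a2, the iron importer DMT1, had 47.4 ± 3.56 at P5 and 38.1 ± 9.94 at P30 (adjusted p 0.234).

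None of the zinc carriers of the Slc30 and Slc39 families passed both limits. Slc30a1, which exports zinc from the cell, had 124 ± 5.43 at P5 and 207 ± 12.0 at P30 (adjusted p 0.00146) and passed the adjusted p but not the fold. The importers Slc39a8 and Slc39a10 had 229.8 ± 28.7 at P5 and 151 ± 21.6 at P30 (adjusted p 0.0149) and 206 ± 11.4 at P5 and 139 ± 26.2 at P30 (adjusted p 0.0201), every P30 isolation being below every P5 isolation in both. Slc39a14 had 34.1 ± 1.91 at P5 and 33.0 ± 6.16 at P30 (adjusted p 0.793), with overlapping isolations. The highest member of the group, Slc39a7, which releases zinc from the endoplasmic reticulum, had 242 ± 8.57 at P5 and 252 ± 8.50 at P30 (adjusted p 0.638).

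Vitamin and haem carriers rose in 1 of 6 members. Slc48a1 encodes HRG1, which moves haem out of endosomes and lysosomes. Slc48a1 had an FPKM of 88.4, 74.99 and 75.2 at P5 and 156, 157 and 189 at P30. P30 replicate 3 was the highest. Mean Slc48a1 was 2.1-fold higher at P30, and limma gave a log2 fold change of 1.06 with an SE of 0.12 (adjusted p = 0.000962). Without P30 replicate 3 its difference was under 2-fold, at a log2 fold change of 0.97. Slc23a2, the vitamin C transporter, had 167 ± 4.84 at P5 and 253 ± 30.9 at P30 (adjusted p 0.00603) and passed the adjusted p but not the fold. The folate carrier Slc19a1 had 5.59 ± 0.830 at P5 and 12.9 ± 6.93 at P30 (adjusted p 0.140), and the thiamine carriers Slc19a2 and Slc19a3 had 9.06 ± 0.757 at P5 and 10.5 ± 1.94 at P30 (adjusted p 0.574) and 4.33 ± 1.69 at P5 and 9.95 ± 4.15 at P30 (adjusted p 0.0808).

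Lipid, choline and nucleoside carriers held 1 fall and no rise. Slc29a3 encodes a nucleoside transporter of lysosomes. At P5 Slc29a3 had an FPKM of 40.9, 45.4 and 37.1, and at P30 it had 19.1, 18.3 and 20.1. The ages did not overlap. Mean Slc29a3 was 2.15-fold lower at P30, and limma gave a log2 fold change of -1.06 with an SE of 0.15 (adjusted p = 0.00206). The call was lost without P5 replicate 1, 2 or 3, with an adjusted p of up to 0.02 from limma. Slc29a1, the nucleoside transporter ENT1 of the cell surface, had 399 ± 1.22 at P5 and 372 ± 68.2 at P30 (adjusted p 0.522), with overlapping isolations.

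The highest member of this group was Slc44a2, a choline transporter-like protein, with 386 ± 30.0 at P5 and 647 ± 36.8 at P30 (adjusted p 0.00158), which passed the adjusted p but not the fold. Its relative Slc44a1 had 203 ± 15.4 at P5 and 177 ± 31.8 at P30 (adjusted p 0.261). The fatty acid transport proteins Slc27a1, Slc27a3 and Slc27a4 had 16.1 ± 3.45 at P5 and 20.9 ± 2.21 at P30 (adjusted p 0.204), 16.1 ± 3.42 at P5 and 12.0 ± 3.69 at P30 (adjusted p 0.295) and 43.2 ± 1.96 at P5 and 36.8 ± 2.06 at P30 (adjusted p 0.196), none past an adjusted p of 0.01.

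Inorganic ion and pH carriers fell in 2 of 34 members, both sodium and proton exchangers, and the 1 that rose, Slc26a7, is described with the carriers typical of other cells. Slc9a9 serves endosomes. The FPKM of Slc9a9 was 39.5, 33.9 and 26.2 at P5 and 15.6, 8.07 and 8.62 at P30. Slc9a5 serves the cell surface and endosomes. Slc9a5 had an FPKM of 28.5, 31.9 and 32.5 at P5 and 16.8, 15.1 and 12.9 at P30. In both genes the P30 isolations were below the P5 isolations. Mean Slc9a9 was 3.09-fold lower at P30, and limma gave a log2 fold change of -1.58 with an SE of 0.29 (adjusted p = 0.00556). Mean Slc9a5 was 2.07-fold lower at P30, and limma gave a log2 fold change of -1.01 with an SE of 0.18 (adjusted p = 0.00460). Slc9a9 lost its call without P5 replicate 1, 2 or 3 or P30 replicate 2 or 3, with an adjusted p of up to 0.0306 from limma. Slc9a5 lost it without P5 replicate 1, 2 or 3 or P30 replicate 3, with an adjusted p of up to 0.0333. The potassium and chloride cotransporters Slc12a7 and Slc12a4 had 118 ± 7.91 at P5 and 232 ± 32.0 at P30 (adjusted p 0.00146) and 107 ± 15.9 at P5 and 205 ± 8.25 at P30 (adjusted p 0.00177), which passed the adjusted p but not the fold.

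The highest symbol of this group, Slc9a3r2, is a scaffold protein that binds a sodium and proton exchanger and is not itself a carrier, with 946 ± 175 at P5 and 1826 ± 344 at P30 (adjusted p 0.00698). It passed the adjusted p but not the fold. The pattern also took in Slc9a3r1, Slc4a1ap and Slc7a6os, which are likewise not carriers and which did not pass both limits, and 195 members are left without these 4.

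Mitochondrial carriers were the second largest group, and 9 of 35 members were above and 11 below at P30 without overlap, beside 22.0% and 33.0% of all genes tested. Slc25a25 was the 1 member that rose and encodes a calcium-regulated carrier of ATP-Mg and phosphate. At P5 Slc25a25 had an FPKM of 77.5, 54.6 and 61.4, and at P30 it had 219, 431 and 208. P30 replicate 2 was about 2 times the other P30 isolations, all of which were above P5. Mean Slc25a25 was 4.43-fold higher at P30, and limma gave a log2 fold change of 2.06 with an SE of 0.28 (adjusted p = 0.00183). It no longer passed both limits without P5 replicate 2 or 3, with an adjusted p of up to 0.0131 from limma. The ADP and ATP carrier Slc25a4, the highest of the group, had 841 ± 32.8 at P5 and 888 ± 33.5 at P30 (adjusted p 0.500), with overlapping isolations. The carnitine carrier Slc25a20 had 105 ± 3.00 at P5 and 71.2 ± 4.10 at P30 (adjusted p 0.00572) and the calcium-regulated Slc25a24 had 129.6 ± 4.62 at P5 and 85.2 ± 10.8 at P30 (adjusted p 0.00751), which passed the adjusted p but not the fold. Of the 8 Golgi and endoplasmic reticulum carriers, Slc35a4 was the highest, with 109 ± 8.10 at P5 and 97.9 ± 14.9 at P30 (adjusted p 0.391).

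**Figure D4:**
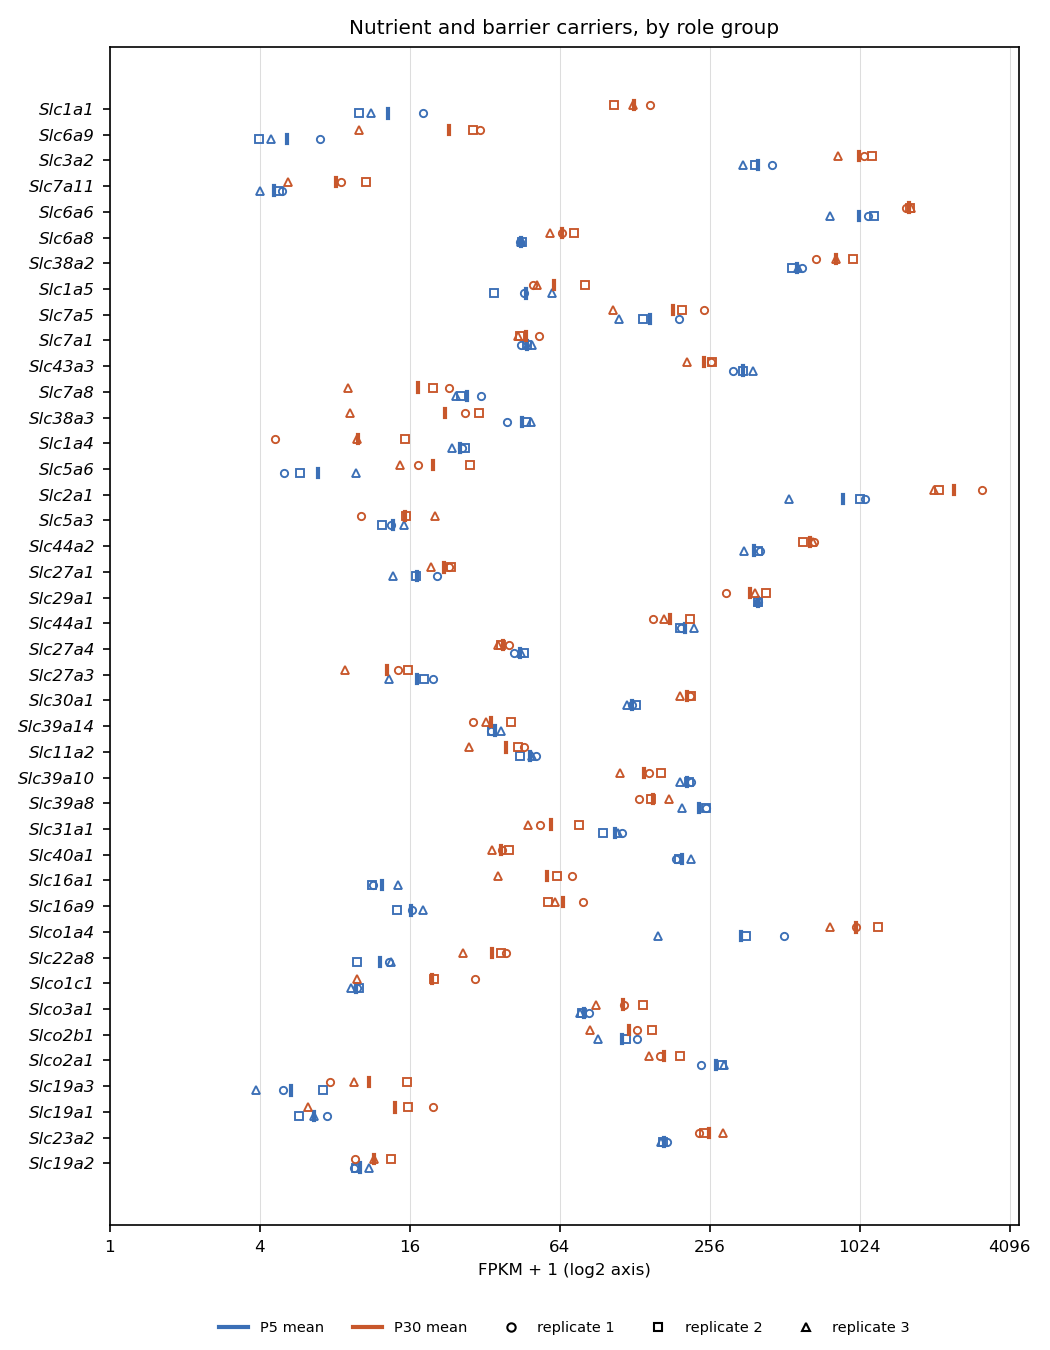
FPKM + 1 on a log2 axis of 42 members of the nutrient and barrier list, by role group and then by log2 fold change. Blue is P5 and orange P30, the bar is the mean of 3 isolations and the circle, square and triangle are replicates 1, 2 and 3. In 18 genes all P30 points lie right of all P5 points, in 10 left, and in 14 the ages overlap. Of all genes tested, 22.0% were above and 33.0% below at P30 without overlap.

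Carriers known from other cells of the eye or blood were also expressed. Of a list of 16, 13 were members, 3 of which rose (Slc6a13, Slc16a8 and Slc26a7), and the 13 summed to an FPKM of 164, 122 and 132 at P5 and 540.0, 407 and 233 at P30. Of the 13, 5 were over the threshold at both ages. The rest, among them Slc6a13 and Slc26a7, were over it only at P30, which sets their side. Part of the higher sum at P30 thus follows from the choice of members. In 9 of the 13 the P30 isolations ran from replicate 1 as the highest to replicate 3 as the lowest, while 7 of the 17 carriers that rose and 47 of all 199 had that order. It was the order of the RPE, photoreceptor, Schwann cell and pigment cell marker sums. The part of those cells in the levels was not tested.

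Slc16a8 encodes MCT3, the lactate exporter of the RPE. The FPKM of Slc16a8 was 6.71, 4.24 and 8.04 at P5 and 117, 72.7 and 27.3 at P30. The P30 isolations differed by over 4 times among themselves. Mean Slc16a8 was 11.4-fold higher at P30, and limma gave a log2 fold change of 3.13 with an SE of 0.50 (adjusted p = 0.00331). Both limits were no longer met without P5 replicate 1, 2 or 3 or P30 replicate 2, with an adjusted p of up to 0.0173 from limma. Slc6a13 encodes the GABA and taurine transporter GAT2, found in the RPE and meninges. Slc6a13 had an FPKM of 1.01, 0 and 0 at P5 and 42.2, 27.3 and 8.04 at P30. P5 replicates 2 and 3 were listed at 0. On the log2(FPKM + 1) scale Slc6a13 rose by 4.14 ± 0.65 (SE, adjusted p = 0.00296 from limma). Significance was lost without P5 replicate 2 or 3 or P30 replicate 2, with an adjusted p of up to 0.0167 from limma. Slc26a7 encodes an anion exchanger of epithelia. At P5 Slc26a7 had an FPKM of 1.82, 0.850 and 3.02, and at P30 it had 8.27, 20.2 and 13.7. P30 replicate 2 was the highest and P30 replicate 1 the lowest, the order of the pericyte and fibroblast markers. Mean Slc26a7 was 7.43-fold higher at P30, and limma gave a log2 fold change of 2.37 with an SE of 0.46 (adjusted p = 0.00700). The call was lost without P5 replicate 1, 2 or 3 or P30 replicate 2 or 3, with an adjusted p of up to 0.0292 from limma.

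Of the others in that list, 4 had their P30 isolations in the order of the RPE markers and did not pass both limits with all isolations, but did without P30 replicate 3. The imino acid carrier Slc6a20a had 34.8, 18.5 and 3.61 at P30 (adjusted p 0.0122 from limma, 0.00153 without that isolation). The bicarbonate cotransporter Slc4a5 had 56.4, 46.9 and 6.31 (0.0216 and 0.00213). The rod exchanger Slc24a1 had 20.0, 13.5 and 3.01 (0.0244 and 0.00247). The vesicular glutamate transporter Slc17a7 had 11.5, 7.22 and 0 and was listed at 0 at P5 (0.120 and 0.00433).

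The last 6 of the list did not pass both limits with all isolations. Slc47a1, a drug and cation exporter of epithelia, was listed at 0 at P5 and had 4.76, 0.72 and 9.96 at P30. The melanosome carriers Slc24a5 and Slc45a2 had 19.0 ± 9.72 at P5 and 45.4 ± 25.6 at P30 (adjusted p 0.143) and 3.14 ± 2.98 at P5 and 6.76 ± 5.30 at P30 (adjusted p 0.464). Slc11a1, an iron carrier of macrophages, had 17.1 ± 1.51 at P5 and 9.93 ± 4.41 at P30 (adjusted p 0.0738), and without P30 replicate 1 it passed both limits as lower at P30 (adjusted p 0.00809 from limma). Slc15a3, a peptide carrier of macrophages, had 26.0 ± 2.22 at P5 and 34.2 ± 8.16 at P30 (adjusted p 0.203). Slc25a37, the mitochondrial iron importer of red cell precursors, had 61.6 ± 10.3 at P5 and 106 ± 15.4 at P30 (adjusted p 0.0103).

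**Figure D5:**
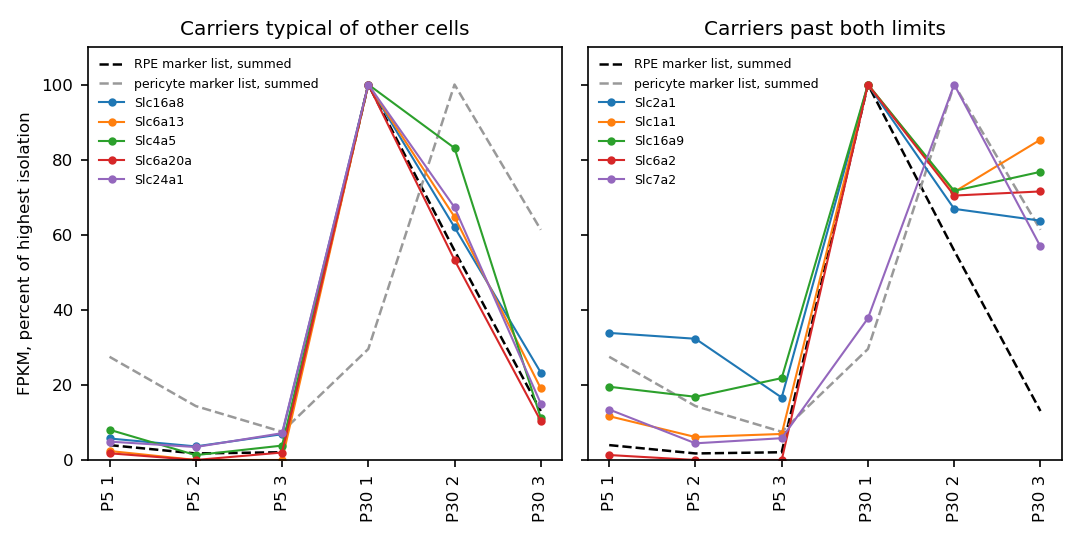
FPKM in each isolation as a percent of the highest of the 6 isolations (vertical axis), for 5 carriers typical of other cells (left) and 5 carriers past both limits (right), with the summed RPE and pericyte marker lists dashed. On the left the P30 values are highest in replicate 1 and lowest in replicate 3, beside the RPE list, and on the right Slc7a2 runs beside the pericyte list while Slc2a1, Slc1a1, Slc16a9 and Slc6a2 stay above 60% of their highest value in P30 replicate 3. The 5 on each side were chosen after their values were seen. Slc15a3, Slc25a37, Slc26a7 and Slc47a1, from the same list as those on the left and not drawn, had their P30 isolations in other orders. Of the carriers past both limits that were not drawn, Slc10a6 and Slc16a1 also had their lowest P30 value in replicate 3, with a highest P30 isolation 2.88 and 2.01 times the lowest.

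The carriers that rose did not share 1 order of P30 isolations. Of the 17, 7 ran in the order of replicates 1, 2 and 3, 3 ran 1, 3, 2, another 3 ran 2, 3, 1, 2 ran 2, 1, 3, and 1 each ran 3, 1, 2 and 3, 2, 1. The 7 were Slc2a1, Slc6a13, Slc10a6, Slc16a1, Slc16a8, Slc22a8 and Slc50a1, and their order was that of the RPE marker sums. The part of RPE cells in their levels was not tested. In 13 of the 17 the lowest P30 isolation was at least 2 times the highest P5 isolation. Overlapping exons of another annotated gene were present in 47 members and in 6 of those that rose (Slc1a1, Slc2a1, Slc7a2, Slc16a9, Slc25a25 and Slc48a1). The annotated partners of these 6 lie on the opposite strand, and since no source used here states that strand was kept, reads of such a pair cannot be told apart.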

How the data were processed

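RNA of sorted choroid ECs was sequenced in 3 P5 and 3 P30 isolations, with 4 samples per lane. The authors aligned the reads to mm9 with TopHat, used CuffLinks to calculate FPKM, corrected for GC and scaled to the upper quartile, and deposited 1 FPKM value per gene symbol and isolation. The submitters' processing notes name CASAVA 1.8.2 and FastQC, and give no version of the aligner. Read counts were not used here, so depth is unknown and no counting error is given. Ages were taken from the labels. From the FPKM, log2(FPKM + 1) was tested with limma 3.58.1 in R 4.3.3 (trend, no block) over genes that reached a mean FPKM of 5 at 1 age or both, with Benjamini-Hochberg adjustment. A call needed an adjusted p under 0.01 and a 2-fold difference in mean FPKM + 1. Errors are SD over isolations or the SE of the limma coefficient. With 3 isolations against 3, an exact permutation test of 1 gene cannot go below p = 0.1, so none was used. The test was checked on simulated data. Python 3.11.15 with pandas 2.3.3, numpy 2.4.6 and matplotlib 3.10.9 served for the other steps.

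Members, role groups and lists were chosen with earlier results of these data known. Named with values were all members of the nutrient and barrier list, all members past both limits, the highest member of each role group and all members of the list of carriers typical of other cells. The values of 1 member are not reported here, and it stays in the counts. Others are named as examples, chosen after their values were seen. For 198 members 1 gene was found by symbol in the GENCODE annotation of mm9, which gave positions and exon overlaps. Promoters are of RefSeq on GRCm38.p6, and Slc40a1 had none in that table. Alternatives were other pseudocounts, low-value filters, scalings, variance models, thresholds, a replicate block and each isolation left out.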

Additional observations from a re-analysis of the deposited data

How the results depend on the processing

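With all 6 isolations and no replicate block, the number of carriers that rose stayed between 16 and 19 and the number that fell between 4 and 7 under other pseudocounts, filters, variance models, the limma coefficient as fold and quantile normalization, while rescaling to the same sum (TPM) gave 15 and 10. An adjusted p under 0.05 without the fold limit gave 51 and 33, beside 16.1% and 22.4% of all genes, and an adjusted p under 0.01 without it, an alternative chosen after seeing the data, gave 24 and 12. Leaving out 1 isolation gave between 8 and 22 that rose and between 2 and 8 that fell, with 22 without P30 replicate 3. Fewer isolations leave fewer degrees of freedom, and other causes were not tested. Of 1422 values for the 72 named carriers, 0 reversed a called direction, and 72 in 14 carriers lost a call while 39 in 24 carriers gained one. Among carriers without a call, with all 6 isolations, the sign of Slc25a4 and Slc39a7 turned with quantile normalization and with TPM, that of Slc7a1 and Slc39a14 with quantile normalization, that of Slc5a3 with TPM, and that of Slco2b1 with TPM and with sample weights.

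Over all genes tested, same-numbered isolations did not deviate together (correlations of -0.06, -0.09 and -0.03). A correlation over all genes cannot show whether some of them deviated together, so it does not settle whether the numbers pair the samples. The main fit assumed no pairing. With the replicate block 14 carriers rose and 4 fell, and 16 of the 23 calls were kept. Depth is unknown, and levels near 0 are therefore the least certain.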

Other observations

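Transporters outside the SLC and SLCO symbols, chosen after their values were seen, are given here as values. The drug exporters of brain vessels Abcb1a, Abcb1b and Abcc4 passed both limits. Abcb1a had an FPKM of 271, 219.7 and 160 at P5 and 706, 764 and 668 at P30 (a log2 fold change of 1.74 with an SE of 0.18, adjusted p = 0.000615 in limma), and every P30 isolation was over 2 times every P5 isolation. Abcc4 had 95.5, 100.2 and 86.2 at P5 and 226, 192 and 187 at P30 (1.09 with an SE of 0.12, adjusted p = 0.000638 in limma). Abcb1b had 46.0, 39.8 and 30.8 at P5 and 80.0, 79.9 and 115 at P30 (1.21 with an SE of 0.20, adjusted p = 0.00407 in limma). Another exporter, Abcg2, had 662 ± 14.1 and 832 ± 132 (SD, n = 3) and did not pass the adjusted p (0.0907 from limma). Abcc1 had 48.3 ± 0.592 and 45.2 ± 12.2, and Abcc5 had 92.3 ± 10.2 and 111 ± 17.6, and neither passed (adjusted p of 0.643 and 0.206 from limma).

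Mfsd2a, a carrier of lysophospholipids known from brain vessels, had 6.71, 1.02 and 1.74 at P5 and 75.02, 60.3 and 21.6 at P30 (a log2 fold change of 3.76 with an SE of 0.62, adjusted p = 0.00368 in limma). Its P30 isolations were in the order of the RPE markers. Of 14 expressed Slc35 symbols with the letters b to g, which the symbol pattern leaves out, 2 rose and 0 fell. Slc35e4 had 20.1 ± 3.35 at P5 and 43.9 ± 7.54 at P30, and Slc35f2 had 14.8 ± 4.77 and 38.8 ± 7.30 (adjusted p = 0.00517 and 0.00767 from limma).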
